A study of Mus musculus with 24 samples.

Results

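The genes described here are the matrix metalloproteinases (MMPs), the ADAM, ADAMTS and ADAMTS-like (ADAMTSL) genes, and the tissue inhibitors of metalloproteinases (TIMPs) of cultured mouse brain endothelial cells. They were chosen by symbol: every protein-coding gene of the wild-type table named Mmp, Adam, Adamts, Adamtsl or Timp with a number, at a mean of at least 1 normalized count over the 20 wild-type libraries. The rule gave 51 of the 18091 genes in that table. They were 13 ADAM genes, 14 ADAMTS genes, 4 ADAMTSL genes, 4 TIMPs, 7 membrane-type MMPs and 9 secreted MMPs. Another 4 genes carried a matching symbol but lay under the minimum: Adam32 at a mean of 0.9, Adam21 at 0.75, Adamtsl3 at 0.65 and Adam22 at 0.55. The members just inside it were Mmp10 at 1.05, Mmp9 at 1.4 and Adam3 at 1.5.

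RNA was sequenced from MBMECs, which are mouse brain microvascular endothelial cells in primary culture, taken from cortex and midbrain of C57B/6J wild-type mice. The cells had 48 h of puromycin against other cell types and were grown on transwell inserts, which give separate access to the apical (blood) side and the basal (tissue) side. All 5 groups described here are wild type, carry no transgene, had 4 libraries each and were harvested 24 h after treatment began. They received vehicle, 500 nM of the S1P4 agonist CYM50260 on the apical side, the same agonist on the basal side, 50 nM of sphingosine-1-phosphate (S1P) on the apical side, or the same S1P on the basal side. Each library came from 3 inserts and, by the design text, each replicate from 12 mice, so a library is a pool of animals. That text calls basal S1P barrier-opening and the other 3 treatments barrier-tightening, and the comparisons below follow this division. The vehicle-treated S1P4 knockout libraries were normalized separately and were not used here.

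Metalloproteinases of these families use a zinc ion to cut proteins outside the cell or at its surface. MMPs are made as inactive precursors, cut matrix proteins such as the collagen of the basement membrane, and are blocked by TIMPs. ADAM proteins sit in the membrane and release the outer parts of other surface proteins, ADAMTS enzymes are secreted and cut proteoglycans and procollagens, and ADAMTSL proteins have the same anchoring domains without a protease. In brain vessels, MMPs that cut basement membrane and tight junction proteins are known for their part in barrier breakdown.

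The normalized totals of the 20 libraries were 4.49 to 4.72 M, with 1009 to 1952 genes at 0. No gene exceeded 6171 to 8346 normalized counts in a library, and whether values of abundant genes were compressed before deposit was not tested. All 10 endothelial markers had a mean of at least 10, and their sum was 17692 to 21297 per library. Of the other cell types checked, pericyte markers summed to 296 to 3020 with 8 of 10 at a mean of at least 10. Smooth muscle markers summed to 2555 to 4023 with 7 of 7 at that mean, and fibroblast markers to 85 to 906 with 5 of 8. Microglia and macrophage markers summed to 35 to 122 with 1 of 8, and astrocyte and neuron markers to 526 to 883 and 91 to 358 with 2 of 7 in each list. Oligodendrocyte markers summed to 2 to 17, with none at that mean. Xist, the RNA of the inactive X chromosome, differed between replicate numbers. By it, 4 libraries did not go with the others of their number: S1P apical replicate 3 (525) and replicate 4 (1417), S1P basal replicate 2 (552) and agonist apical replicate 2 (1382). Vehicle replicates 2, 3 and 4 were at 2251, 1063 and 190. Whether labels of these libraries were exchanged was not tested, and in the S1P groups, which hold 3 of them, the treatment cannot be told apart from the pool of cells. Counts of genes in the S1P comparisons are also given without these 4 libraries.

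Levels were compared between genes per kilobase (kb) of exon, as the mean normalized count over the 20 libraries divided by the length of all annotated exons. The highest level was that of Adamts1 at 324 per kb, a secreted enzyme that cuts the proteoglycans aggrecan and versican. Adam10, which releases Notch receptors and VE-cadherin from the membrane, followed at 295 per kb. Timp2 was next at 288, Adam15 at 241, Timp1 at 193, Timp3 at 188, Adam9 at 176 and Adam17 at 125 per kb. Among the MMPs the order began with membrane-bound Mmp15 (110 per kb), secreted Mmp28 (93.3), membrane-bound Mmp14 (71.0) and secreted Mmp2 (63.4). Mmp9, the gelatinase most often named with Mmp2 in barrier breakdown, was at 0.396 per kb. Of the 51 genes, 32 had a mean of at least 10 and were tested, and 19 did not.

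**Figure D1:**
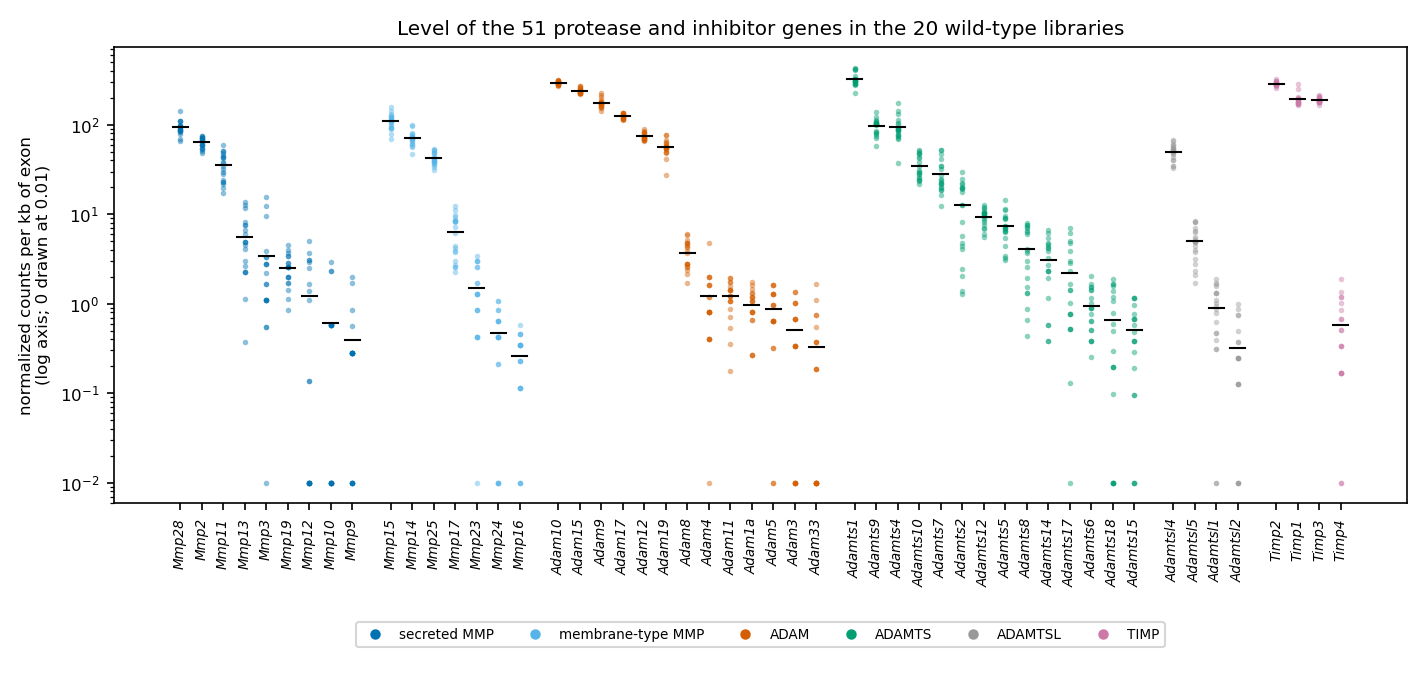
Mean level of each of the 51 genes over the 20 wild-type libraries, in normalized counts per kb of exon on a log axis, with genes grouped by family. Adamts1, Adam10 and Timp2 are at the top with 324, 295 and 288 per kb, and Mmp9 and Mmp10 lie near the bottom with 0.396 and 0.610.

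The inhibitors were led by Timp2, Timp1 and Timp3. Values in single libraries are given here and below in the order of replicates 1 to 4. Timp2, which inhibits MMPs and also takes part in the activation of Mmp2 by Mmp14, was at 1111, 1099, 1070 and 1136 normalized counts in vehicle. It was at 1184, 1142, 1187 and 1102 with apical agonist and at 1059, 1091, 1149 and 1187 with basal agonist. With apical S1P it was at 1098, 1101, 1254 and 1115, and with basal S1P at 1011, 1190, 1071 and 1097. All 5 groups overlapped, and the 20 values spanned 1011 to 1254. Timp3, which binds the matrix and inhibits Adam17 and the aggrecanases, was at 1462, 1522, 1444 and 1628 in vehicle and at 1506, 1477, 1459 and 1670 with basal S1P. Its values were 1680, 1449, 1462 and 1703 with apical agonist, 1522, 1502, 1494 and 1732 with basal agonist, and 1573, 1530, 1450 and 1342 with apical S1P. These groups overlapped as well. Timp1, an inducible secreted inhibitor, was at 157, 152, 172 and 152 in vehicle, 175, 161, 171 and 163 with apical agonist and 161, 149, 168 and 154 with basal agonist. It was at 158, 172, 222 and 174 with apical S1P and at 174, 250, 182 and 157 with basal S1P. The 2 highest Timp1 values came from S1P apical replicate 3 and S1P basal replicate 2, which are among the libraries that Xist set apart. Timp4 lay under the test minimum, with 0 to 11 normalized counts per library.

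The ADAM genes were led by Adam10, Adam15, Adam9 and Adam17. Adam10 was at 1430, 1435, 1364 and 1508 in vehicle, 1523, 1436, 1379 and 1529 with apical agonist, and 1423, 1406, 1367 and 1513 with basal agonist. It was at 1565, 1392, 1427 and 1399 with apical S1P and at 1486, 1497, 1326 and 1570 with basal S1P, so that no group stood apart. Adam17, the enzyme that releases tumour necrosis factor, spanned 818 to 978 over all 20 libraries. Adam9, a further sheddase, was at 714, 736, 672 and 689 in vehicle, 706, 849, 656 and 701 with apical agonist and 743, 730, 583 and 694 with basal agonist. Its S1P values were 699, 730, 936 and 651 apically and 787, 884, 632 and 680 basally, with S1P apical replicate 3 the highest library. Adam12, which releases ligands of the EGF receptor, spanned 687 to 956. Adam8, best known from leukocytes, was low at 8 to 28. The 6 other ADAM genes were low: Adam1a, Adam11, Adam4, Adam5, Adam33 and Adam3, of which Adam1a, Adam3 and Adam5 are known from sperm. No single library exceeded 13 for any of them.

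Among the ADAMTS genes, Adamts9 at 97.1 per kb and Adamts4 at 93.5 per kb came next after Adamts1. Adamts1 was at 1619, 1529, 1512 and 2206 in vehicle, 1724, 1548, 1600 and 2146 with apical agonist and 1639, 1619, 1699 and 2222 with basal agonist. With S1P it was at 1737, 1503, 1194 and 1637 apically and at 1834, 1478, 1612 and 2296 basally. In 4 of the 5 groups replicate 4 was the highest library, and with apical S1P it was not. Adamts9, a versican-cutting enzyme, was at 1527, 1534, 1186 and 1524 in vehicle, 1611, 1267, 1068 and 1712 with apical agonist and 1559, 1636, 1254 and 1593 with basal agonist. S1P libraries were at 1519, 1476, 875 and 1207 apically and at 1853, 1127, 1579 and 2102 basally. Both the lowest and the highest of its 20 values were thus in S1P-treated libraries. Adamts10 and Adamts6, which act on fibrillin, had means over the 20 libraries of 288 and 7.40. Adamts7 ranged from 77 to 329 and Adamts5, the second main aggrecanase beside Adamts4, from 33 to 156. Adamts15 and Adamts18 were at 0 in 3 and 5 libraries and did not exceed 12 and 19.

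The ADAMTSL genes, whose products bind fibrillin microfibrils, were led by Adamtsl4 at 50.1 per kb. Adamtsl4 was at 220, 233, 171 and 213 in vehicle, 246, 281, 168 and 199 with apical agonist and 242, 225, 206 and 202 with basal agonist. With S1P it was at 221, 253, 279 and 146 apically and at 184, 232, 138 and 144 basally. The groups overlapped, and its lowest values were S1P basal replicates 3 and 4. Adamtsl5 was at 40, 30, 23 and 15 in vehicle, 24, 26, 13 and 10 with apical agonist and 31, 39, 23 and 8 with basal agonist. Apically applied S1P gave 39, 33, 21 and 19, and basal S1P 25, 23, 18 and 11. Adamtsl1 was at 22, 17, 8 and 0 in vehicle, 21, 17, 6 and 6 with apical agonist and 17, 20, 4 and 0 with basal agonist. The apical S1P libraries were at 24, 14, 11 and 10, the basal ones at 12, 13, 5 and 4. For both genes the range within each group exceeded the distance between the highest and the lowest group mean. Adamtsl2 did not exceed 8.

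The membrane-type MMPs are tethered to the cell surface. Mmp15 was at 620, 584, 504 and 645 in vehicle, 674, 378, 488 and 663 with apical agonist and 605, 532, 592 and 705 with basal agonist. Values with S1P were 674, 562, 430 and 491 apically and 768, 500, 614 and 858 basally, and all groups overlapped. Mmp25 was at 191, 202, 260 and 259 in vehicle, 180, 222, 228 and 276 with apical agonist and 188, 208, 228 and 275 with basal agonist. S1P values were 204, 166, 259 and 201 on the apical side and 211, 235, 214 and 287 on the basal side. Mmp17 ranged from 15 to 82. Mmp23, Mmp16 and Mmp24 had means under 10 and single values of 0 to 8.

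Among the secreted MMPs, Mmp28 and Mmp11 carry a site for furin, the protease that activates them inside the cell, and Mmp2 is the type IV collagenase that Mmp14 activates. Mmp2 was at 254, 239, 201 and 209 in vehicle, 234, 226, 180 and 187 with apical agonist and 252, 243, 172 and 202 with basal agonist. Its S1P values were 238, 202, 240 and 164 apically and 229, 220, 179 and 202 basally. The difference between basal S1P and vehicle was -0.12 ± 0.14 (log2, limma SE), within the spread of the groups. Mmp11 was at 164, 141, 90 and 79 in vehicle, 120, 104, 63 and 107 with apical agonist and 119, 129, 67 and 83 with basal agonist. Apically applied S1P gave 135, 141, 48 and 61, and basal S1P 121, 55, 63 and 97. Mmp9 had a mean of 1.4 and a highest value of 7, and a difference between treatments was not detectable at this level. Mmp19 ranged from 3 to 16.

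Mmp13, Mmp12, Mmp3 and Mmp10 lie side by side within 238 kb of chromosome 9 (mm10, chr9:7272514-7510240) on the plus strand. Mmp13 is a collagenase, Mmp3 and Mmp10 are stromelysins with a broad range of matrix substrates, and Mmp12 is the macrophage elastase. Their means were low, at 14.9 normalized counts for Mmp13, 6.15 for Mmp3, 1.05 for Mmp10 and 8.90 for Mmp12. The promoters of these genes are known for a binding site of AP-1, the Fos and Jun factors, a short distance from a TATA box. The 250 bases before the RefSeq start (GRCm38.p6) are shown for Mmp3, Mmp10 and Mmp13 because these were the members with both motifs in 1 window. Those of Mmp14 and Adamts1 are shown beside them as members without an AP-1 match, a pair chosen after its values were seen. Of the motifs marked, Mmp14 holds only GC boxes, and Adamts1 holds GC boxes and also a TATA box. Levels per kb were 71.0 and 324 for this pair and 3.41, 0.610 and 5.56 for Mmp3, Mmp10 and Mmp13. Capitals mark AP-1 (TGANTCA, both strands), the TATA box (TATAAA, sense strand) and the GC box (GGGCGG, both strands), where neighbouring motifs may touch. The windows are chr9:7445572-7445821 for Mmp3, chr9:7502092-7502341 for Mmp10, chr9:7272264-7272513 for Mmp13 and chr14:54431348-54431597 for Mmp14, all on the plus strand, and chr16:85803114-85803363 for Adamts1 on the minus strand.
Mmp3: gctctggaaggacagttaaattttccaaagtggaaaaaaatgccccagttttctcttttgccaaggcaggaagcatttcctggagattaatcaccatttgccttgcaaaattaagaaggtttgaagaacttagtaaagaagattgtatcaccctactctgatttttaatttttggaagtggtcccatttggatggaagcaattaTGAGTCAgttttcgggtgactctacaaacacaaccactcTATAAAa
Mmp10: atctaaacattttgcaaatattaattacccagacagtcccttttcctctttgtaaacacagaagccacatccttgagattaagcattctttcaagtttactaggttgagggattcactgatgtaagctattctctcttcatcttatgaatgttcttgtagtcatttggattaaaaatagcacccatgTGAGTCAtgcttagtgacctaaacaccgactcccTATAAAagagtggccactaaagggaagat
Mmp13: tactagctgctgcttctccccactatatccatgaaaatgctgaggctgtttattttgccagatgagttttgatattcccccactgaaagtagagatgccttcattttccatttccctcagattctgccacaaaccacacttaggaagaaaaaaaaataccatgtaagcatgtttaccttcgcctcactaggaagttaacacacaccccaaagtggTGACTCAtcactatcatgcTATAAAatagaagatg
Mmp14: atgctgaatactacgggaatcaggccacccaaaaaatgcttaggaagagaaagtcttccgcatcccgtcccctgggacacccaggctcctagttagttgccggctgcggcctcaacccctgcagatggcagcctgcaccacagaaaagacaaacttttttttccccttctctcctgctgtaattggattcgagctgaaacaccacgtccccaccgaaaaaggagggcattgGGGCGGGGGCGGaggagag
Adamts1: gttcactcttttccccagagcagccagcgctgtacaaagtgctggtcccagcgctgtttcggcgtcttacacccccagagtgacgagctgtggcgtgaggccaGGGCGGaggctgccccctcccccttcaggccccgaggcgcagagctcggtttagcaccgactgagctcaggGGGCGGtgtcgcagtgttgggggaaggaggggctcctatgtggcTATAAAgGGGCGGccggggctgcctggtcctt

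Of the 51 genes, 31 had a window in the RefSeq table. AP-1 was found in 5 of them (16.1%), which were Mmp3, Mmp10, Mmp12, Mmp13 and Adam19, against 7.82% of all 27025 genes in that table. The TATA box was found in 5 of 31 genes, against 8.94% of all genes. Both motifs in the same window were found in 3 of 31 genes (9.68%), against 0.944%. In these windows AP-1 began 46 bases before the start in Mmp3, 63 in Mmp10 and 35 in Mmp13. The GC box was found in 21 of 31 genes (67.7%), against 35.4% of all genes. The 27025 genes were not filtered by biotype or level as the members were, so these shares are not of like sets. The share of G and C was 37.6% in Mmp3, 37.2% in Mmp10 and 40.4% in Mmp13, 55.2% in Mmp14 and 65.6% in Adamts1, with a median of 62.0% over the members' windows and 52.4% over all windows. Whether motifs go with level was not tested over the members. Mmp24, at 0.470 per kb, had 3 GC boxes and 79.2% G and C, and Adamts14, at 3.12 per kb, had 6 GC boxes and 76.4%. A match is a description of letters and not a measured site.

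Over the libraries, Mmp13 was at 13, 13, 6 and 6 in vehicle, 13, 7, 31 and 1 with apical agonist and 16, 20, 3 and 6 with basal agonist. The apical S1P libraries were at 18, 22, 34 and 11, the basal ones at 20, 37, 8 and 12. The log2 difference from vehicle was 1.06 ± 0.70 with apical S1P and 0.82 ± 0.70 with basal S1P, neither past the test (limma adjusted p = 0.9996 and 0.762). Mmp3 was at 2, 6, 6 and 2 in vehicle, 2, 2, 2 and 1 with apical agonist and 1, 4, 3 and 0 with basal agonist. S1P values were 5, 5, 22 and 7 on the apical side and 17, 28, 5 and 3 on the basal side. The 3 libraries with over 10 normalized counts of Mmp3 were all treated with S1P, and 2 of them, S1P apical replicate 3 and S1P basal replicate 2, are libraries that Xist set apart. Those libraries also held the highest smooth muscle actin, with Acta2 at 936 and 982 against 435 to 829 in the other 18, and its part in these values was not tested. Mmp3 lay under the minimum of 10 and was not tested. Mmp12 was at 22, 36, 21, 27 and 22 in the replicates numbered 1, in the order vehicle, apical agonist, basal agonist, apical S1P and basal S1P. It was at 0 in 9 of the 10 libraries numbered 3 and 4. Microglia and macrophage markers summed to 82 to 122 in the libraries numbered 1 and to 35 to 42 in those numbered 4. Csf1r, a defining receptor of those cells, was at 7 to 12 in number 1 and at 0 in number 4. Their part in Mmp12 was not tested, and in bulk RNA fewer cells of a type and less RNA per cell cannot be told apart.

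Basal S1P was compared with vehicle to ask which genes differ in cells with an opened barrier. Of the 32 tested genes, 0 were called at an adjusted p under 0.05 by limma, with 0.0245% of all genes called. At an unadjusted p under 0.05 the count was also 0, against 5.22% of all genes. Means were higher for 18 genes and lower for 14, with a median log2 change of 0.05 against 0.00 over all genes tested. The smallest p-values were those of Timp1, at 0.25 ± 0.12, Adamts12, at 0.40 ± 0.21, and Adam15, at 0.11 ± 0.06, each with an adjusted p of 0.756. The Timp1 difference was 0.11 ± 0.10 without S1P basal replicate 2. Without the 4 libraries that Xist set apart, 7 of 32 genes had an unadjusted p under 0.05, against 3.8% of all genes, and 0 were called, with 0.0327% of all genes called. Timp1, Adamts12 and Adam15 were not among the 7, of which Adamts4 (0.69 ± 0.14), Mmp14 (0.32 ± 0.10), Mmp15 (0.34 ± 0.14), Adamts9 (0.35 ± 0.16) and Adam19 (0.29 ± 0.10) were higher. Adamtsl4 (-0.43 ± 0.14) and Mmp28 (-0.32 ± 0.10) were the lower ones.

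Apical S1P against vehicle gave 0 calls among the 32 genes and 0.0% among all genes, and 0 genes at an unadjusted p under 0.05, against 0.996%. The means of 16 were higher and of 16 lower, with a median of -0.01 against -0.00. The smallest p-values were those of Adamts4 (-0.50 ± 0.25), Adam19 (-0.33 ± 0.20) and Mmp14 (-0.25 ± 0.16). All 3 of these had their lowest value of the 20 libraries in S1P apical replicate 3. Without that library the differences were -0.24 ± 0.22 for Adamts4, -0.08 ± 0.16 for Adam19 and -0.12 ± 0.15 for Mmp14. That of Mmp14 was -0.01 ± 0.12 without the 4 libraries that Xist set apart, and 0 of the 32 genes then had an unadjusted p under 0.05, against 0.776% of all genes.

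The S1P4 agonist was given at another dose than S1P, so neither agonist group was compared alone with an S1P group. Basal S1P against the 3 other treatments does set 50 nM S1P against a mean that includes both 500 nM agonist groups. In that comparison compound and dose cannot be told apart from the side. All comparisons with vehicle share the same 4 vehicle libraries. With apical agonist, 0 of 32 genes were called (0.0% of all genes) and 0 had an unadjusted p under 0.05 (1.09% of all genes). The smallest p-values were those of Adamtsl5 (-0.56 ± 0.43), Adamts17 (-1.18 ± 1.02) and Timp2 (0.06 ± 0.06). With basal agonist, 0 of 32 were called (0.0% of all genes) and 0 had an unadjusted p under 0.05 (0.31% of all genes), and Adam15 (0.05 ± 0.06), Mmp11 (-0.23 ± 0.36) and Adam12 (0.06 ± 0.09) came first. Between basal and apical agonist 0 were called (0.0% of all genes) and 0 had an unadjusted p under 0.05 (0.498% of all genes), led by Adamts17 (1.49 ± 1.02), Mmp15 (0.18 ± 0.19) and Adamtsl1 (-0.84 ± 0.92). Single libraries moved each of these 3 by over 1.5 times. Adamts17 was at 0.71 ± 1.02 without agonist apical replicate 3, and its difference between apical agonist and vehicle was then -0.40 ± 1.02. Mmp15 was at 0.01 ± 0.18 without agonist apical replicate 2, which Xist set apart, and Adamtsl1 at 0.07 ± 0.85 without agonist basal replicate 4. Adamts17, an ADAMTS with fibrillin as a known partner, was at 39, 30, 1 and 6 in vehicle, 18, 4, 0 and 6 with apical agonist and 37, 23, 4 and 8 with basal agonist. With S1P it was at 55, 22, 13 and 4 apically and 48, 6, 11 and 11 basally, and all 5 groups overlapped. Of the tested genes 1 did not overlap between apical agonist and vehicle: Adam19 was at 346, 382, 352 and 393 with apical agonist against 400, 399, 452 and 416 in vehicle. Such a gap was found in 0.678% of all genes for that comparison, and the limma test did not call it.

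**Figure D2:**
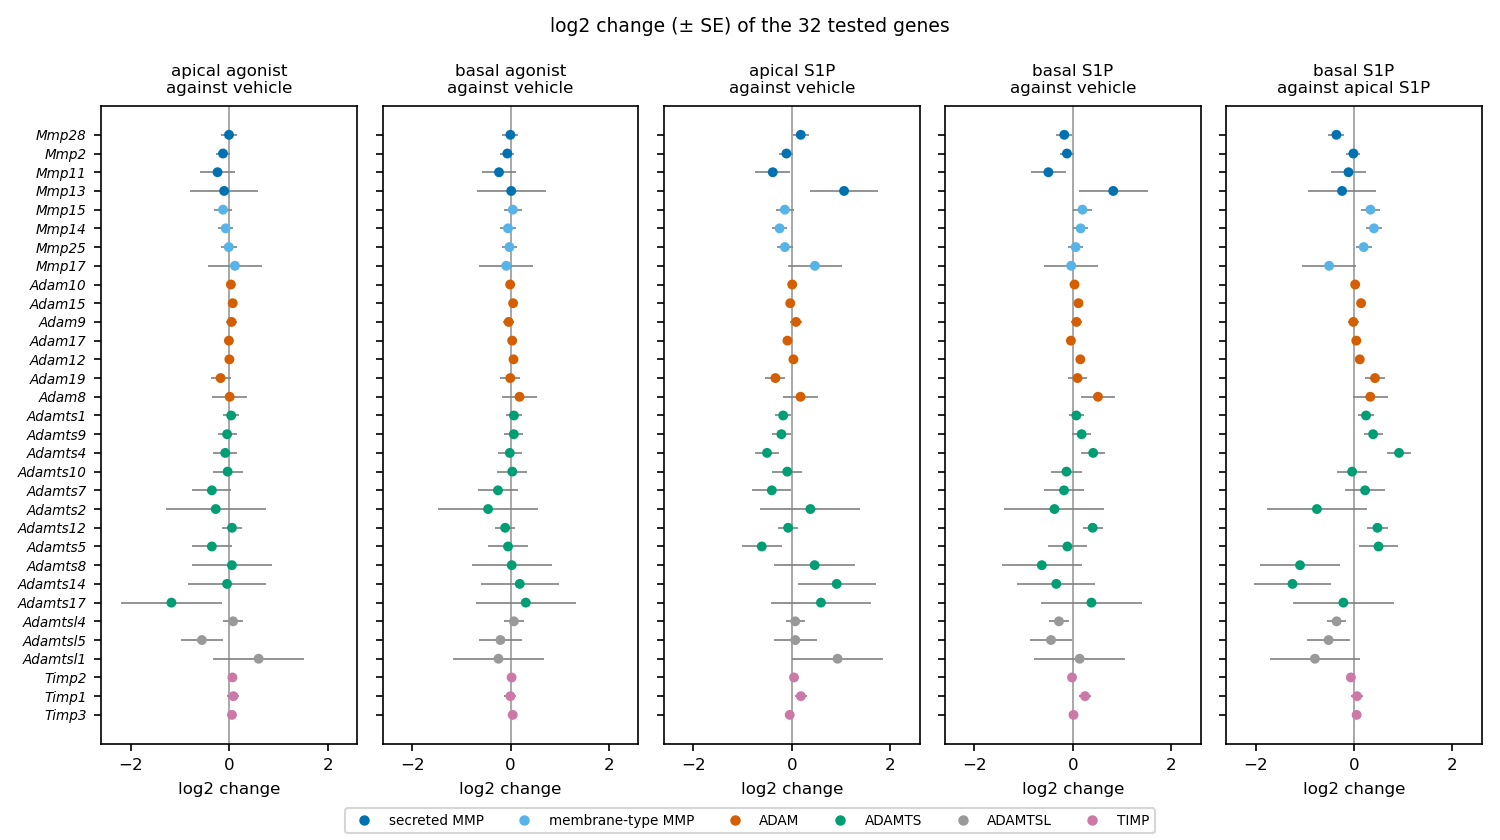
Log2 change with its limma standard error (bars) for the 32 tested genes in 5 comparisons, coloured by family. None of the 32 genes was called in these comparisons, and the basal against apical S1P panel holds Adamts4 at 0.91 ± 0.25.

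Between basal and apical S1P, 0 of 32 genes were called, with 0.0245% of all genes called. At an unadjusted p under 0.05 there were 6 genes, 5 higher and 1 lower with basal S1P, against 4.01% of all genes. The 5 were Adamts4, Mmp14, Adamts12, Adam15 and Adam19, and the lower one was Mmp28. Without the 4 libraries that Xist set apart there were 5, against 6.65% of all genes: Adamts4, Mmp14, Adam19, Mmp28 and Adamtsl4. Among the tested genes by family, 6 of 7 ADAM genes, 6 of 11 ADAMTS genes and 3 of 4 membrane-type MMPs had higher means with basal S1P. All 3 tested ADAMTSL genes and all 4 tested secreted MMPs had lower ones, and 50.2% of all genes had higher means. Of the untested secreted MMPs, Mmp3 and Mmp19 had higher mean counts with basal S1P, and Mmp12, Mmp9 and Mmp10 lower ones. These family counts include the libraries that Xist set apart. The median over the 32 genes was 0.03 against 0.00 over all genes.

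Adamts4, an aggrecanase (mm10, chr1:171250421-171260637, plus strand), had the smallest p. It was at 422, 414, 501 and 433 normalized counts in vehicle (442.5 ± 39.8, SD, n = 4). With apical agonist it was at 408, 364, 371 and 546, and with basal agonist at 383, 432, 445 and 494. With apical S1P it was at 427, 342, 180 and 357 (326.5 ± 104), and with basal S1P at 683, 331, 634 and 831 (619.8 ± 210, n = 4 each). Of the basal S1P libraries 3 were above every other library, and replicate 2 was below every vehicle library. The log2 difference from apical S1P was 0.91 ± 0.25 (limma adjusted p = 0.674). Against the mean of the 3 other treatments it was 0.61 ± 0.20 (adjusted p = 0.575). Within a replicate number, basal S1P was the highest of the 5 libraries for numbers 1, 3 and 4 and the lowest for number 2. Leaving out S1P basal replicate 2 gave 0.89 ± 0.18 against the 3 other treatments (adjusted p = 0.0901), and leaving out S1P apical replicate 3 gave 0.52 ± 0.17 (adjusted p = 0.486).

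Without the 4 libraries that Xist set apart, Adamts4 was at 716 ± 103 with basal S1P (SD, n = 3). It was then at 442.5 ± 39.8 in vehicle (n = 4), 441.7 ± 92.2 with apical agonist (n = 3), 438.5 ± 45.6 with basal agonist (n = 4) and 384.5 ± 60.1 with apical S1P (n = 2). The difference from the 3 other treatments was 0.77 ± 0.12, with a limma adjusted p of 0.0384. It was then the only one of the 32 genes called, with 0.0408% of all genes called. This comparison mixes S1P and the agonist, which were given at different doses. The 4 libraries were picked by Xist in these same data. They include S1P basal replicate 2, the lowest basal S1P library for Adamts4 at 331. Against vehicle alone (adjusted p = 0.198) and against apical S1P alone (adjusted p = 0.208) Adamts4 was not called in the 16 libraries that remain. Over all alternatives tried, the difference from the 3 other treatments stayed between 0.45 and 0.89, with adjusted p between 0.0384 and 0.9998.

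Mmp14, which activates Mmp2 at the cell surface (mm10, chr14:54431612-54445364, plus strand), was at 465, 427, 416 and 413 in vehicle. It was at 440, 366, 363 and 476 with apical agonist and at 388, 440, 394 and 440 with basal agonist. With apical S1P it was at 433, 420, 277 and 342, and with basal S1P at 455, 339, 578 and 594. The S1P groups overlapped, with the 2 highest values of all in S1P basal replicates 3 and 4, and differed by 0.40 ± 0.16 (adjusted p = 0.999). The difference was 0.34 ± 0.12 without the 4 libraries that Xist set apart (adjusted p = 0.701). Adam19, a membrane sheddase of neuregulins (mm10, chr11:46055992-46147343, plus strand), was at 435, 352, 194 and 402 with apical S1P and at 442, 296, 548 and 544 with basal S1P. Its basal agonist libraries were at 415, 476, 393 and 381. The S1P difference of 0.43 ± 0.20 had an adjusted p of 0.999, and without S1P apical replicate 3 it was 0.17 ± 0.16. It was 0.38 ± 0.12 without the 4 libraries that Xist set apart (adjusted p = 0.669). For Adamts4, Mmp14 and Adam19, S1P apical replicate 3 was the lowest of the 20 libraries.

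Adamts12, a matrix protease known for cutting cartilage oligomeric matrix protein, was at 121, 113, 83 and 76 in vehicle, 108, 114, 74 and 110 with apical agonist and 100, 112, 61 and 93 with basal agonist. With apical S1P it was at 89, 104, 115 and 66, and with basal S1P at 130, 128, 114 and 140. Basal S1P replicates 1, 2 and 4 were the 3 highest libraries. Replicate 3 at 114 was under vehicle replicate 1 (121) and S1P apical replicate 3 (115) and equal to agonist apical replicate 2. The difference was 0.47 ± 0.21 from apical S1P and 0.44 ± 0.17 from the 3 other treatments (adjusted p = 0.999 and 0.740). Without the 4 libraries that Xist set apart, that from the 3 other treatments was 0.44 ± 0.19 (limma adjusted p = 0.802). That from apical S1P then had no unadjusted p under 0.05. Mmp28 was at 385, 371, 336 and 336 in vehicle, 351, 423, 328 and 325 with apical agonist and 375, 361, 355 and 333 with basal agonist. With apical S1P it was at 431, 371, 553 and 304 and with basal S1P at 337, 431, 271 and 252, a difference of -0.36 ± 0.16 (adjusted p = 0.999). The groups overlapped. The Mmp28 difference was -0.21 ± 0.15 without S1P apical replicate 3, the highest library, and -0.49 ± 0.11 without the 4 libraries that Xist set apart (adjusted p = 0.468).

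Adam15, an ADAM found at endothelial cell contacts, was slightly higher in each basal S1P library than in every apical S1P library. It was at 1389, 1377, 1448 and 1405 with apical S1P (1405 ± 31.0) and at 1476, 1528, 1558 and 1648 with basal S1P (1553 ± 72.1, SD, n = 4 each). These groups did not overlap, as in 1.4% of all genes tested, and differed by 0.14 ± 0.06 (adjusted p = 0.999). Without the 4 libraries that Xist set apart the means were 1383 (n = 2) and 1561 (n = 3). The unadjusted limma p of Adam15 was then no longer under 0.05. Vehicle was at 1357, 1399, 1392 and 1598, apical agonist at 1520, 1394, 1500 and 1607, and basal agonist at 1380, 1412, 1507 and 1664, so that basal S1P overlapped each of them. No other tested gene of these families had groups that did not overlap in this comparison. In 5 comparisons none did: basal S1P, apical S1P and basal agonist against vehicle (2.11%, 1.32% and 0.588% of all genes), basal against apical agonist (0.433%) and basal S1P against the 3 other treatments (0.253%).

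**Figure D3:**
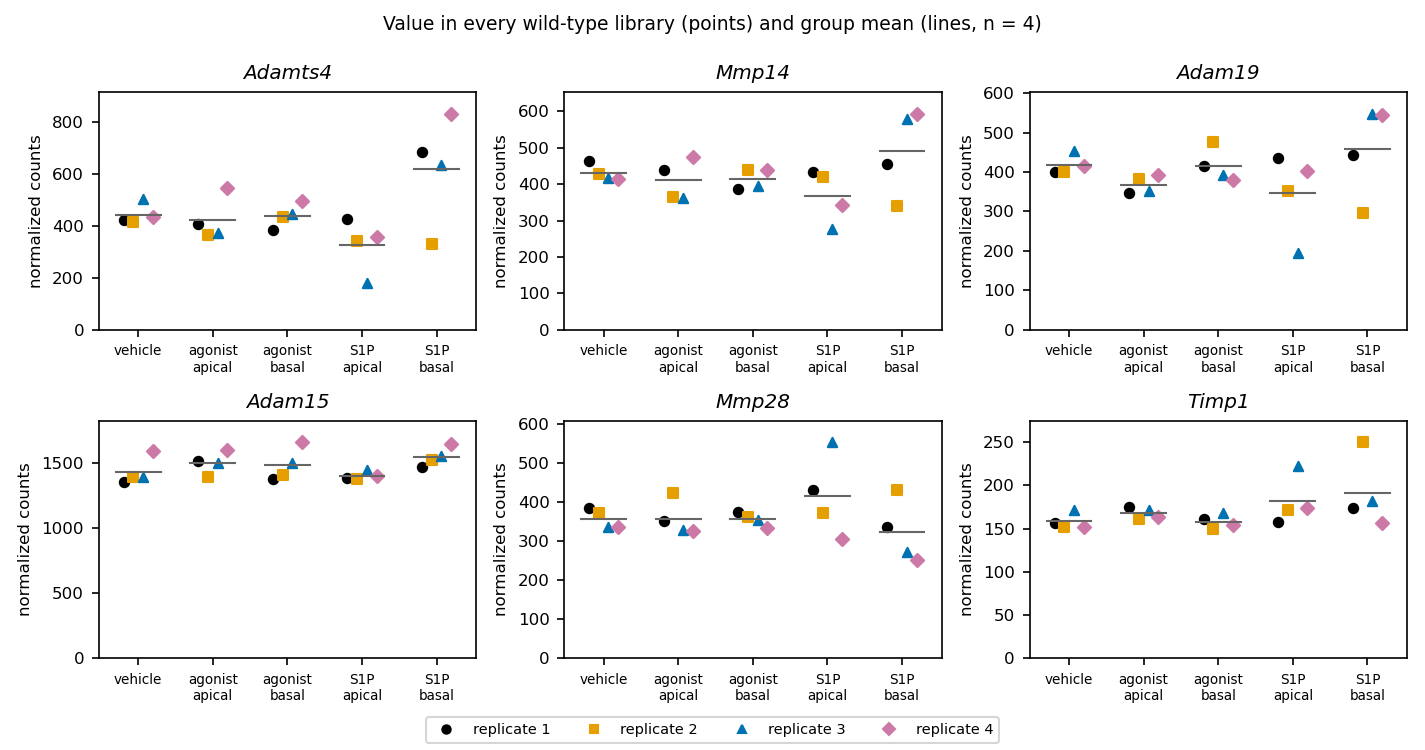
Normalized counts of 6 genes in every wild-type library, with the shape and colour of a point giving its replicate number and lines giving group means (n = 4). For Adamts4, 3 of the 4 basal S1P libraries (634 to 831) are above all other libraries and replicate 2 (331) is not.

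Basal S1P against the mean of the 3 other treatments gave 0 calls among 32 genes, with 0.049% of all genes called. At an unadjusted p under 0.05 there were 4 genes, against 5.63% of all genes: Adamts4, Adamts12 and Mmp14 (0.28 ± 0.13) were higher and Adamtsl4 (-0.36 ± 0.16) was lower. Over the 32 genes 18 means were higher and 14 lower, with a median of 0.06 against 0.00 over all genes. Without the 4 libraries that Xist set apart there were 8 such genes, against 5.86% of all genes. Whether the side mattered differently for S1P and for the agonist was tested as a difference of differences, with equal doses on both sides of each compound but different doses between compounds. It called 0 of 32 genes (0.0% of all genes). At an unadjusted p under 0.05 there were Adamts4 (0.85 ± 0.35) and Adamts12 (0.64 ± 0.29), against 1.49% of all genes. There were 4 without the libraries that Xist set apart, against 3.7% of all genes: Adamts4, Adamtsl4, Mmp14 and Mmp28. The F test over the 5 groups called 0 of 32 (0.0245% of all genes), and 1 gene, Adamts4, had an unadjusted p under 0.05 (limma adjusted p = 0.9997), against 1.73% of all genes. Without the 4 libraries that Xist set apart, the F test called 0 of 32 (0.00816% of all genes), and 5 of 32 had an unadjusted p under 0.05, against 1.7% of all genes: Adamts4, Mmp28, Adam19, Adamtsl4 and Mmp14.

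More of the variation lay between replicate numbers than between treatments. Over the 32 genes, the median share of the variance of log2 values that lay between replicate numbers was 49.3%, and the share between treatment groups was 15.9%. Over all genes tested these medians were 42.9% and 13.9%. Groups that do not differ also take some share of the variance, and that share was not computed or subtracted here. The 32 genes also varied more in total, with a median SD over the 20 libraries of 0.31 (log2) against 0.18 over all genes. The labels give the number only as a replicate number, and the sources used here do not tell whether equal numbers mean a shared pool of animals.

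The highest shares between replicate numbers were those of Adamts2 (90.4%), Adamts10 (80.1%), Adamts8 (78.3%), Adamts14 (76.6%) and Adamtsl5 (73.1%). Adamts2 and Adamts14 encode procollagen N-proteinases, which trim fibrillar collagens. Adamts2 was at 278, 188, 53 and 23 in vehicle replicates 1 to 4, 208, 180, 41 and 19 with apical agonist and 164, 181, 45 and 13 with basal agonist. With S1P it was at 231, 181, 118 and 38 apically and at 201, 117, 77 and 12 basally. In every group the libraries numbered 1 and 2 were above those numbered 3, and those numbered 4 were the lowest. Adamts14 was at 22 to 35 in number 1 and 2 to 12 in number 4, and Adamts8, an ADAMTS known to restrain vessel growth, at 29 to 37 and 2 to 7. Adamts10 was split otherwise, with 242 to 431 in numbers 1 and 2 and 180 to 259 in numbers 3 and 4.

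Pericyte markers summed to 2325 to 3020 in the libraries numbered 1, 1732 to 2403 in number 2, 1065 to 1900 in number 3 and 296 to 1005 in number 4. Fibroblast markers summed to 629 to 898, 623 to 906, 103 to 756 and 85 to 120. Within both lists S1P apical replicate 3 was the highest library of its number, as it was for Adamts2. The part of these cells in Adamts2, Adamts8 and Adamts14 was not tested. At the other end were Adam19 (7.15% between numbers), Mmp14 (10.4%), Timp2 (12.4%), Adamts4 (15.7%) and Timp1 (16.1%). The share between treatment groups was the highest for Adamts4, at 43.3%, followed by Adamts12 at 32.3%, Timp1 at 31.7%, Adam15 at 30.8% and Mmp14 at 28.4%. The share that groups without a difference would take was not computed for these genes.

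**Figure D4:**
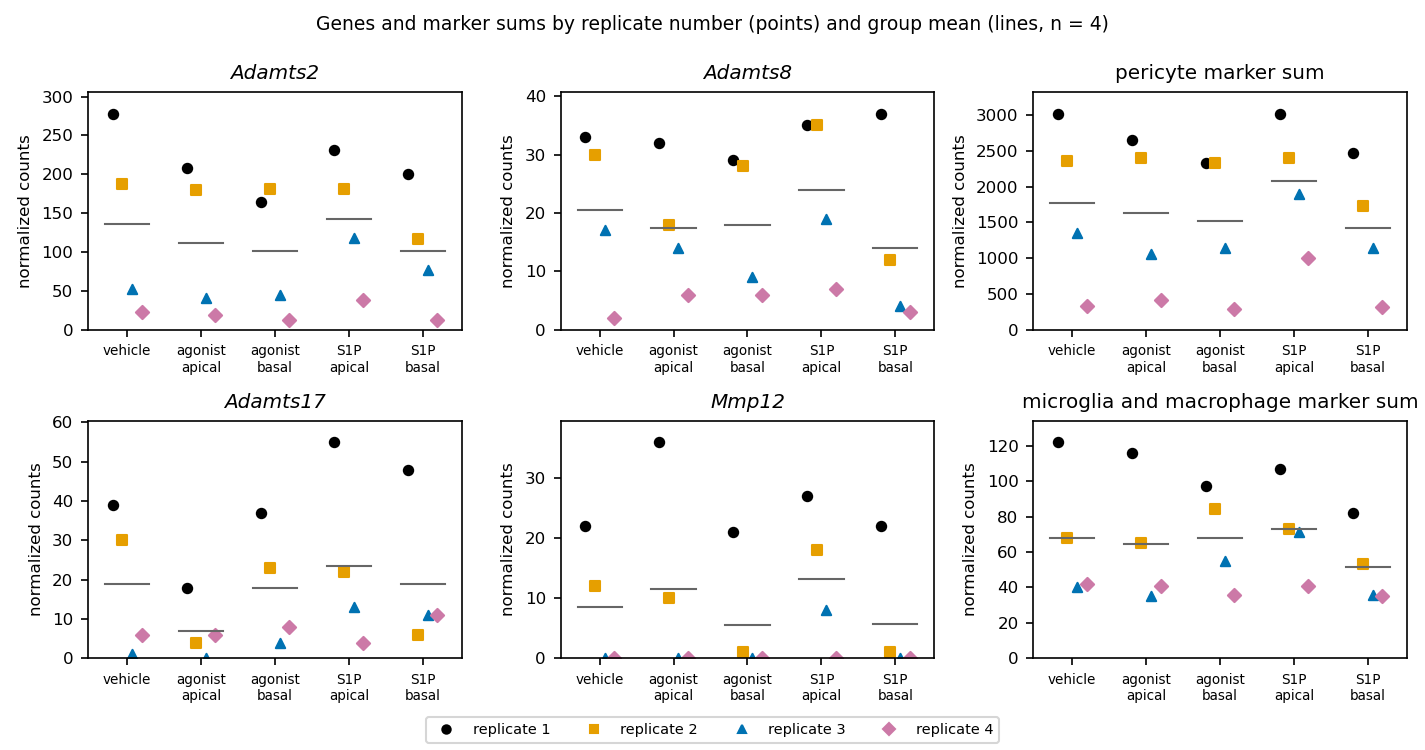
Normalized counts of Adamts2, Adamts8, Adamts17 and Mmp12, and summed pericyte and microglia and macrophage markers, in every wild-type library, with point shape and colour for the replicate number and lines for group means (n = 4). Over all 5 groups Adamts2 is at 164 to 278 in the libraries numbered 1 and at 12 to 38 in those numbered 4.

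**Figure D5:**
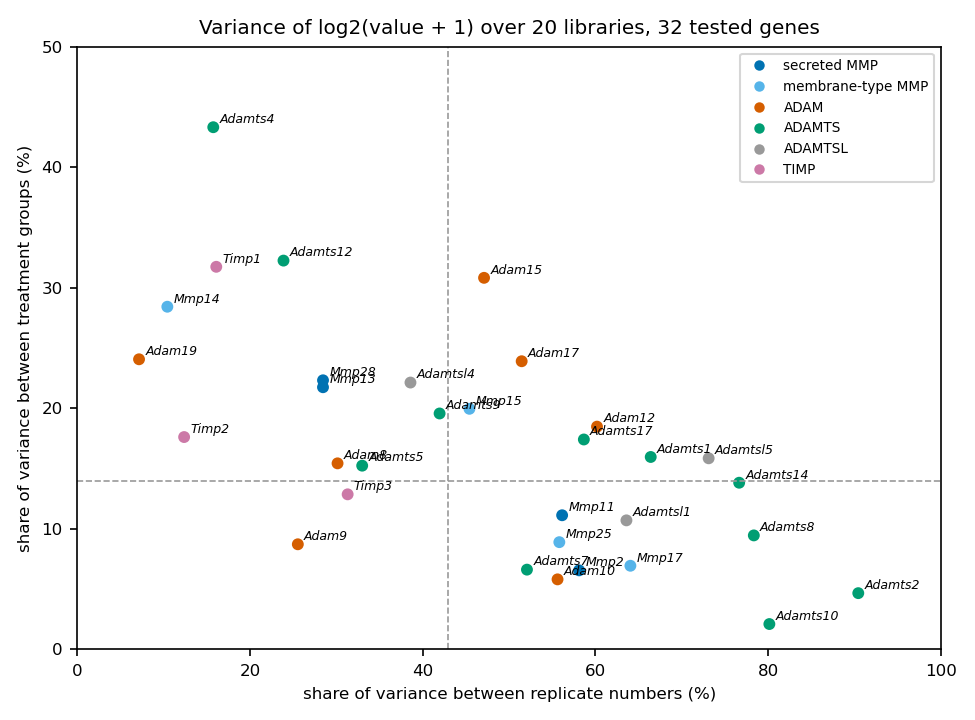
Share of the variance of log2 values between replicate numbers (x axis, percent) and between treatment groups (y axis, percent) for the 32 tested genes, with the medians over all genes as lines. Adamts2 is at the right with 90.4% between numbers, and Adamts4 at the top with 43.3% between groups.

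Single libraries weighed on many of these genes. S1P apical replicate 3 was the lowest of the 20 libraries for 7 of the 32 genes and the highest for 4, and S1P basal replicate 4 was the highest for 9. The median distance from the mean of the other libraries in the same group was 0.54 (log2) for S1P basal replicate 2, 0.43 for S1P apical replicate 3 and 0.40 for S1P apical replicate 4, against 0.12 to 0.38 for the other 17. The 3 libraries are among those that Xist set apart, so the side of S1P treatment and the set of cells cannot be told apart in them.

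Genes that act with these proteases were listed in 5 groups, chosen with earlier results of these data known. None of their tested genes was called in any of the comparisons. Over all genes tested, 50.0% had higher means with basal S1P than in vehicle (median 0.00), and 49.8% with apical S1P. For basal S1P against vehicle, an unadjusted limma p under 0.05 was found for 1 of 10, 1 of 15, 5 of 22, 1 of 33 and 1 of 14 genes. These are in the order of the lists below, against 5.22% of all genes. Of 10 genes for activators of precursors and the plasmin system, 8 had higher means with basal S1P than in vehicle and 2 lower (median 0.20), led by Plaur, the urokinase receptor (0.39 ± 0.18), and Furin (0.12 ± 0.06), both at an adjusted p of 0.756. Between basal and apical S1P the smallest p-values were those of the plasminogen activators Plat (0.47 ± 0.18) and Plau (0.35 ± 0.16, adjusted p = 0.999 for both). Plat was at 719, 706, 584 and 495 with apical S1P and at 966, 889, 602 and 1040 with basal S1P, so the groups overlapped.

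Of 15 tested genes for other inhibitors and regulators, 7 had higher and 8 lower means with basal S1P than in vehicle. The smallest p was that of Reck, a membrane-anchored inhibitor of MMPs, and the next that of Frmd8 (0.12 ± 0.08), a partner of the iRhom proteins that carry Adam17. Reck was at 694, 699, 637 and 736 in vehicle (691.5 ± 40.9), 760, 690, 658 and 679 with apical agonist and 708, 707, 693 and 698 with basal agonist. With apical S1P it was at 688, 689, 698 and 623, and with basal S1P at 625, 564, 494 and 607 (572.5 ± 58.3, SD, n = 4 each). Of the basal S1P libraries 3 were below all other libraries, and replicate 1 at 625 was just above the lowest of them, 623. The difference was -0.28 ± 0.07 from vehicle (adjusted p = 0.649), -0.24 ± 0.07 from apical S1P (adjusted p = 0.719) and -0.28 ± 0.06 from the 3 other treatments (adjusted p = 0.101). In the apical S1P comparison with basal S1P the next was Tspan33 (0.55 ± 0.33), a tetraspanin that goes with Adam10.

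Of 22 tested substrates in basement membrane and matrix, 14 had higher and 8 lower means with basal S1P than in vehicle (median 0.08), led by the matrix protein Ltbp2 (-0.76 ± 0.31) and the laminin chain Lamb1 (0.14 ± 0.06). Between basal and apical S1P they were Ltbp2 (-0.73 ± 0.31) and Nid2 (0.25 ± 0.11), a basement membrane linker. Of 33 shed or junction proteins, 17 were higher and 16 lower (median 0.03), led by the adhesion receptor Icam1 (-0.34 ± 0.11) and Notch4 (0.13 ± 0.07). Between basal and apical S1P they were Icam1 (-0.37 ± 0.11) and the Notch ligand Dll4 (0.26 ± 0.09). Of 14 AP-1, ETS, Sp1 and NF-kB factors, 6 were higher and 8 lower with basal S1P than in vehicle, and 1 was higher and 13 lower with apical S1P, each with a median of -0.05. The smallest p-values with basal S1P were those of Nfkb1 (-0.14 ± 0.06) and Sp1 (-0.18 ± 0.10), and between the S1P sides those of Ets1 (0.13 ± 0.06) and Nfkb1 (-0.10 ± 0.06).

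Exons of 17 of the 51 genes share bases with another gene on the opposite strand, and those of Adam1a also with genes on the same strand. The shared part was 21.3% of exon bases in Timp3 (with Syn3), 20.6% in Adam15 (with 4731419I09Rik) and 63.7% in Adam1a (with Gm42878). The library kit keeps strand, but the counting's strand setting was not given in the sources used here, so reads of these partners cannot be told apart.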

How the data were processed

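Stranded mRNA libraries of 20 wild-type MBMEC cultures, 4 in each of 5 groups set by the sample titles, were analysed. Tools listed in the submitters' processing notes, without role or order, were DESeq2 1.26.0, STAR 2.7.3a, Subread, featureCounts 1.6.5, FastQC and Trimmomatic 0.38, with the build mm10. The authors deposited a signal per gene in whole numbers: judged from the values, these are counts scaled by a factor for each library and then rounded, here called normalized counts. Since rounding kept the reads from being recovered, the limma test planned for normalized values was used in place of a count model, so depth per library and counting intervals are not given.

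Log2(value + 1) of the 12249 genes with a mean of at least 10 entered 1 limma fit (version 3.58.1, R 4.3.3) of the 5 group means, in which the prior variance followed the mean. Changes on this scale understate those of low genes. Benjamini-Hochberg adjustment covered those genes, and an adjusted p under 0.05 was a call. The fit was tested on simulated data. Exon lengths are from GENCODE M21, whose coordinates match all 51 members, and promoter windows from RefSeq (GRCm38.p6). Members and gene lists were chosen with earlier results of these data known. Statistics are given for members with an unadjusted p under 0.05 and for the 3 of smallest p in each comparison, and values in every library for these and for the 3 of highest level per class. The 2 genes of smallest p in each related list are named for basal S1P against vehicle and against apical S1P. For the other comparisons few values of these lists are given, and none of their tested genes was called. Alternatives were another pseudocount, filter, scaling, prior or set of groups, a replicate block, and leaving out libraries. The knockout table was left out because it was normalized separately.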

Additional observations from a re-analysis of the deposited data

Results flagged for a closer look

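For each of the 32 tested genes the highest and the lowest library of each group of 4 was compared with its group by the ratio of its gap to the group's range. Of 160 groups 8 were flagged, about the 1 in 20 taken as the chance rate for independent groups. These groups share the same libraries and are not independent, so the count does not tell whether the flags are chance. The 8 are listed below as single values.

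In vehicle, replicate 4 was the highest for Adamts1 at 2206 normalized counts against 1512 to 1619 in the others, replicate 3 the lowest for Adamts9 at 1186 against 1524 to 1534, and replicate 1 the highest for Adam8 at 21 against 12 to 13. With basal agonist, replicate 4 was the highest for Adamts1 at 2222 against 1619 to 1699 and for Timp3 at 1732 against 1494 to 1522. Replicate 4 was thus the high library for Adamts1 in both flagged groups. With apical agonist, replicate 3 was the lowest for Adamts12 at 74 against 108 to 114. With apical S1P, replicate 3 was the highest for Timp2 at 1254 against 1098 to 1115, and it is a library that Xist set apart. With basal S1P, replicate 1 was the highest for Adamts17 at 48 against 6 to 11. No tested gene passed the test of whether the side mattered differently for S1P and for the agonist.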

How the results depend on the processing

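Counts of called genes and medians were recomputed under each alternative: 321 values kept to the same count or within the spread, and 2 did not. The 2 were the median of basal against apical S1P, which was -0.04 when genes with a mean of at least 1 were included, and the count for basal S1P against the 3 other treatments, which was 1 (Adamts4, 0.7677, adjusted p = 0.0384) without the 4 libraries that Xist set apart. Among single genes, leaving out 1 library at a time gave -0.0015 to 0.1048 for Adam15 in basal agonist against vehicle and -1.3971 to 0.067 for Adamtsl1 in basal against apical agonist. Both turned in direction without agonist basal replicate 4. The cause was not tested.

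No median over all genes moved by more than 0.1 under the scalings tried. Same-numbered libraries correlated at -0.34 to 0.81 in their deviations from group means, with a median of 0.61 against -0.26 for different numbers, 36 of 40 pairs over 0.1 and 15 of 20 libraries correlating best with their own number. The other 4 pairs each hold a library that Xist set apart. Not every pair was over 0.1 and no label names a shared pool, so the block was kept as an alternative. With a replicate block 0 of the 32 genes were called in every comparison, with the smallest adjusted p that of Adamts4 in basal against apical S1P (0.0607). At an unadjusted p under 0.05 the block gave 14 rather than 6 of the 32 genes in that comparison, 6 rather than 0 in basal S1P against vehicle, 3 rather than 0 in apical S1P against vehicle, 9 rather than 4 in basal S1P against the 3 other treatments, 6 rather than 2 for side by compound and 6 rather than 1 in the F test. For the block, the share of all genes at that unadjusted threshold is not given. These counts are thus not read as a result about the 32 genes. Over all genes the block called 47 rather than 3 in basal S1P against vehicle, 83 rather than 3 in basal against apical S1P, 137 rather than 6 in basal S1P against the 3 other treatments, 18 rather than 3 in the F test, and 2 rather than 0 for side by compound. A fit of only the groups compared called 0, 1 and 3 genes in the first 3 of these. Genes under a mean of 10 and rounding limit what could be tested.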
